A study of Mus musculus with 2 samples.

Results

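The sequences described here are the abundant small RNAs of 2 mouse dendritic cell libraries for which no annotated transcript was found. They were chosen by 4 criteria: a summed level of at least 10 RPM (reads scaled to a common library size) over both libraries, a length of 18 to 25 nucleotides (nt), a 3′ end other than CCA, and no exact sense match to a GENCODE vM21 transcript, over the full length or, for small RNA types, after removal of up to 3 bases at the 3′ end. Removal had to leave at least 18 bases, so the shortest sequences were matched with fewer bases removed or none. Of 7684 sequences of that level and length, 4230 (55%) had no match, out of 538100 sequences in the whole table. Those that share 16 or more bases were joined, which gave 598 groups, numbered here by their reads, and each group is called by its most abundant sequence. The level chose the sequences, so levels are a description: they ran from 10.3 to 11279 RPM with a median of 21 RPM. Just inside the threshold, at 10 to under 11 RPM, 342 sequences had a median log2 ratio (nuclear over cytoplasmic) of 1.49, and just outside, at 9 to under 10 RPM, 358 had a median of 1.19.

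Both libraries came from bone marrow-derived dendritic cells of C57BL/6 mice, cultured for 7 days with GM-CSF and IL-4, cytokines that yield dendritic cells. Both groups had received LPS, a bacterial cell wall component, at a dose and for a time not given here. The nuclear library holds RNA of a pellet that contained the nuclei, and the cytoplasmic library holds RNA of the other fraction after swelling and centrifugation. There is 1 library of each, no unstimulated group and no number of animals in the labels, so no difference has a replicate check, and all ratios compare these 2 libraries. Whole reads recovered from the deposited values came to 2000019 nuclear and 2041383 cytoplasmic reads. The 95% intervals, in parentheses after ratios and shares, are exact (Clopper-Pearson). They hold the error of counting alone: PCR reads that carry no molecular identifier are not independent molecules. A ratio of shares cannot tell more of one RNA from less of the rest, nor fewer cells of a type from less RNA per cell. Marker mRNAs are not read by these libraries, and the cell type was not checked with them.

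Most RNA of a cell is ribosomal. Its large and small subunit RNAs are cut from a common precursor in the nucleolus and then work in cytoplasmic ribosomes. Transfer RNAs (tRNAs) are also made in the nucleus, receive a CCA end and carry amino acids in the cytoplasm, and they are cut into fragments by cellular nucleases. Small nucleolar RNAs (snoRNAs) stay in the nucleus and guide chemical changes of ribosomal RNA. MicroRNAs (miRNAs) are short guides that repress mRNAs, mainly in the cytoplasm.

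The groups with most reads are shown first, since a few groups carry much of the signal: the 12 largest groups held 53.0% of the nuclear and 49.2% of the cytoplasmic reads of all unmatched sequences. Sequences are written as DNA, 5′ to 3′. Capitals mark bases held by at least 75% of the group's reads, and a sequence without capitals has no such base and comes from a chain of shifted fragments.
Group 2: CGCGACCTCAGATCAGACGTg
Group 3: GACTCTTAGCGGTGGATCACTCgg
Group 4: cgcggcgtgggaaatgtggcgt
Group 5: AGAACTTTGAAGGCCGAAGtggag
Group 8: agggctgggtcggtcggg
Group 10: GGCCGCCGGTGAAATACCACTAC
Group 11: ctAACGCGTGCGCGAGTCAG
Group 24: aCGCCTGTCTGAGCGTCGct
None of these leading sequences had a near match in the transcripts used here, and neither did at least 93.4% of the reads of each group. From general knowledge of ribosomal RNA, group 2 is the start of 28S, group 3 the start of 5.8S and group 24 its end, and groups 5, 10 and 11 lie within 28S. These names were not tested, since no 28S or complete 5.8S reference was matched.

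Group 2 was the second largest, with 43629 nuclear and 24103 cytoplasmic reads over 108 sequences. Its summed level was 21814 RPM (nuclear) against 11807 RPM (cytoplasmic), 1.85-fold above the cytoplasmic level (1.82 to 1.88) and past 2-fold, with a log2 ratio of 1.77, when scaled to the miRNA total. As much as 91.6% of its reads began at the same base, while the commonest 3′ end held 36.4%. Group 3 stood further apart, with 21591 nuclear and 2880 cytoplasmic reads, 7.65-fold above the cytoplasmic level (7.36 to 7.96). Group 24, read as the opposite end of 5.8S, had 2749 nuclear and 1731 cytoplasmic reads.

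Group 10 went the other way and was the one group of the 12 largest called lower in the nuclear library, with 2170 nuclear and 7974 cytoplasmic reads. It was 3.6-fold above the nuclear level, with a log2 ratio of -0.96, just under 2-fold, when scaled to the miRNA total. As many as 92.5% of its reads ended at the same base, whereas its 5′ ends were spread, with 38.8% at the commonest. Groups 2 and 10 are thus mirror images in their ends: one has a fixed 5′ end, the other a fixed 3′ end. Groups 5 and 11 were 2.50-fold (2.40 to 2.59) and 3.36-fold (3.19 to 3.53) higher in the nuclear library. Groups 4 and 8 were long chains, spanning 37 and 77 bases, with ratios of 1.37 and 2.01, and group 8 was no longer called under TMM factors (log2 ratio 0.74) or the median of ratios (0.92). The leading sequences of groups 3, 8 and 11 stood further from 1 than their groups: they had 7843, 866 and 986 nuclear reads beside 466, 37 and 44 cytoplasmic reads.

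In the largest group of all, group 1, sequences 1 base from an annotated RNA held 88.5% of the reads. The capital marks the base that differs from the transcript, counted from 1 at the 5′ end of the sequence shown.
Group 1: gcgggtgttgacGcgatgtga
Group 16: acggccctggCggagcgc
Group 1 differs from Mir6240 at T13G, and group 16 from Gm42418 at T11C. Mir6240 is annotated as a miRNA hairpin and Gm42418 as a long transcript in the ribosomal RNA locus on chromosome 17. Group 1 had 30955 nuclear and 42131 cytoplasmic reads, 1.33-fold above the nuclear level, but its log2 ratio of -0.42 turned to 0.47 when scaled to the miRNA total. Group 16 had 616 nuclear and 4984 cytoplasmic reads, 7.93-fold above the nuclear level. Its leading sequence alone held 383 nuclear and 4299 cytoplasmic reads. The group read as the middle of 5.8S (group 9, 1 base from the annotated n-R5-8s1) had 6950 nuclear and 4049 cytoplasmic reads.

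Forms of one group that differ by a few bases at their ends had opposite ratios. The sequences below belong to groups already shown, and capitals mark the stretch each shares with its group's leading sequence.
Group 1, shifted form: gGCGGGTGTTGACGCGATG
Group 4, shifted form: TGGGAAATGTGGCGTacggaaga
Group 5, shifted form: gAGAACTTTGAAGGCCGAA
Group 10, longer form: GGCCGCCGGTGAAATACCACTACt
In group 1 the leading 21-nt form had 2157 nuclear and 9715 cytoplasmic reads, 4.41-fold above the nuclear level (4.21 to 4.63). The 19-nt form shown starts 1 base earlier and ends 3 bases sooner, and had 9705 nuclear and 2104 cytoplasmic reads, 4.71-fold above the cytoplasmic level (4.49 to 4.94). The same contrast appeared in group 10: the leading form had 925 nuclear and 2637 cytoplasmic reads, and the form with 1 more T at its 3′ end had 126 nuclear and 19 cytoplasmic reads. In group 5 the 24-nt leading form had 1993 nuclear and 66 cytoplasmic reads, while a 19-nt form that shares 18 bases with it had 80 and 447. Group 4 held a cytoplasmic form with 693 nuclear and 2988 cytoplasmic reads and, downstream of it, a nuclear form with 1283 and 273.

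Such mixtures were not limited to these groups. Of the 380 groups with at least 50 reads over both libraries, 85 held sequences called in both directions. The same count was not made for groups with a transcript match, so whether mixtures are particular to unmatched sequences was not tested. A summed group ratio therefore hides opposite forms in those groups, although no called group had a leading sequence of the opposite sign.

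A call required a 2-fold difference on the log2 scale with 0.5 reads added and an interval that excludes 1. Over the 380 groups, 141 were called higher in the nuclear library (37.1%), 109 were called lower (28.7%) and 130 neither. All groups of this level and length, matched or not, gave 39.9% higher and 23.9% lower among 666, so the unmatched groups are close to that background. Their median log2 ratio was 0.02, beside 0.19 for all groups and 0.26 for the 325 groups with a transcript match, of which 42.5% were higher and 19.7% lower. Counted as single sequences, 2061 of the 4230 (48.7%) were called higher and 918 (21.7%) lower, beside 43.9% and 22.5% of all 7684 and 38% and 23.4% of those with a match. Scaled to the miRNA total instead of all reads, 185 groups were higher and 55 lower, since that scaling moves every log2 ratio up by 0.88. Scaling by TMM factors moves it down by 0.27.

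**Figure D1:**
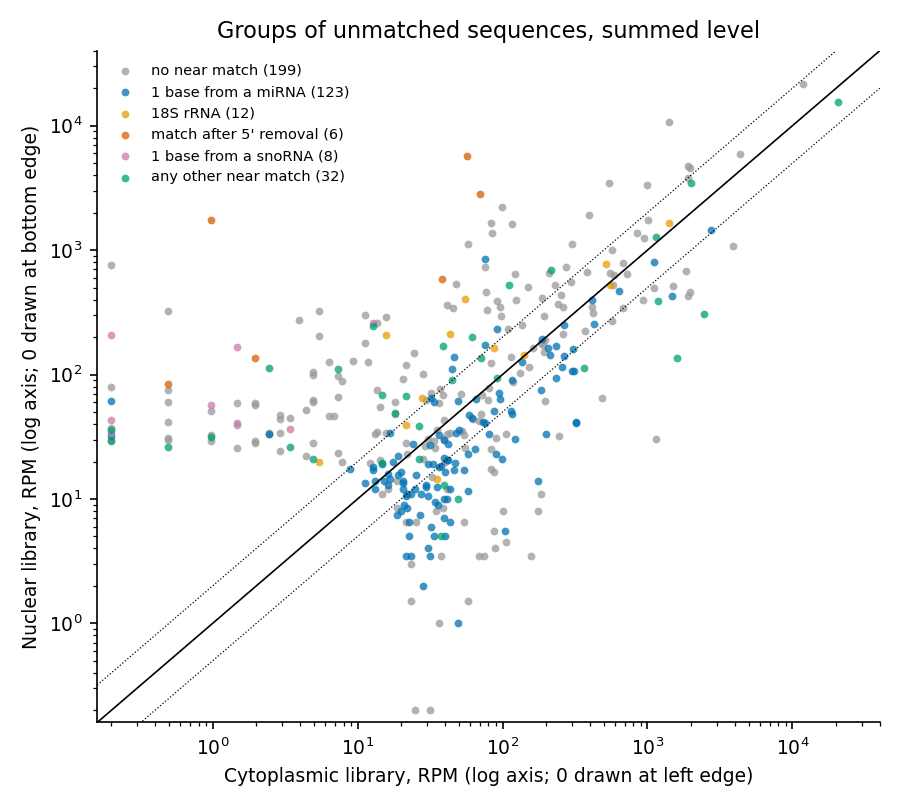
Summed level of the 380 groups with at least 50 reads in the nuclear (y axis, RPM) against the cytoplasmic library (x axis, RPM), both on log axes, coloured by nearest annotation. The solid line marks equal levels and the dotted lines a 2-fold difference. Groups within 1 base of a snoRNA or matching after removal of 5′ bases lie above the lines. Of the 123 groups within 1 base of a miRNA 59 were called lower and 10 higher, beside 23.9% and 39.9% of all 666 groups, matched or not.

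By reads, the unmatched sequences were a larger share of the nuclear than of the cytoplasmic library. They made up 15.5% of its reads (15.49% to 15.59%) and 10.9% of cytoplasmic reads (10.87% to 10.95%), a ratio of 1.42 (1.42 to 1.43). This direction depended on the matching rule: without the removal of 3′ bases, unmatched sequences held 22.3% of nuclear and 22.8% of cytoplasmic reads. Reads in the nuclear library only were seen for 307 of the 4230 sequences, and in the cytoplasmic library only for 48. That count was not made for sequences with a transcript match, so it is not read as a trait of the unmatched ones. Unmatched sequences of every level and length took 39.7% of nuclear reads and 19.2% of cytoplasmic ones, and miRNA matches 40.5% and 74.8%.

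Looser searches placed some of the 4230 sequences near an annotation, and 2887 (68.3%) had no near match even then. These 2887 held 66.9% of the nuclear and 59.3% of the cytoplasmic reads of the set. Among their 199 groups of at least 50 reads, 95 were called higher and 42 lower. Of all 666 groups of this level and length, matched or not, 39.9% were higher and 23.9% lower. The log2 ratios of the 199 groups had a median of 0.82, beside 0.19 for all groups. Sequences within 1 mismatch of a miRNA numbered 667, and those of Mir6240 28. A further 175 were the reverse complement of the annotated rRNA transcript CT010467.1, and 69 matched a small RNA after bases were removed at the 5′ end. The same sequences read backwards gave 0 matches within 1 mismatch of a small RNA and 5 reverse complements. By contrast, 167 sequences within 1 mismatch of another long transcript stand beside 133 when read backwards, and that class is not read further here.

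**Figure D2:**
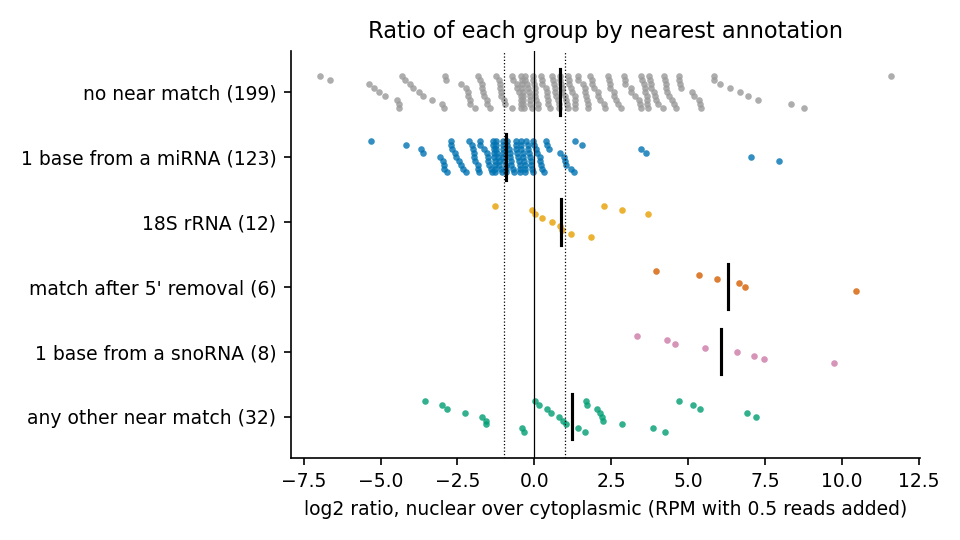
The log2 ratio (nuclear over cytoplasmic) of each of the 380 groups, with 1 point a group, by nearest annotation; numbers of groups are in parentheses, black bars are medians and dotted lines mark 2-fold. All 8 groups within 1 base of a snoRNA and all 6 that match after removal of 5′ bases lie right of the 2-fold line, and the 123 groups within 1 base of a miRNA have a median of -0.92. Of all 666 groups, matched or not, 39.9% were called higher.

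The small ribosomal subunit was represented on the strand opposite to its annotation. GENCODE annotates CT010467.1 as an rRNA of 1849 bases on the minus strand of chr17:39846353-39848201 (GRCm38), and from general knowledge its reverse complement is 18S rRNA. The 175 unmatched sequences lay on that reverse complement between bases 1 and 621. The long transcript Gm42418, on the plus strand, begins at base 606 of it, so 159 of the 175 ended before the first annotated sense transcript and 16 reached into it. On the annotated strand of CT010467.1 itself only 8 sequences with 21 reads were found in the whole table. The 4 largest of these 12 groups, with capitals for bases held by at least 75% of their reads, were the following.
Group 14 (chr17:39846431-39846449, bases 79 to 97): agTGAAACTGCGAATGGCT
Group 83 (chr17:39846461-39846484, bases 109 to 132): ttATGGTTCCTTTGGTCGCTCGCt
Group 48 (chr17:39846760-39846779, bases 408 to 427): ACGGGTGACGGGGAATCAgg
Group 41 (chr17:39846862-39846879, bases 510 to 527): CGGGGAGGTAGTGACGAa
All 4 are on the plus strand, in sequence with no sense transcript in GENCODE vM21.

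The 175 sequences together had 8522 nuclear and 5960 cytoplasmic reads. They cover bases 1 to 621 only, since exact matches to Gm42418 were left out by the rule, so they do not describe 18S as a whole. The 123 sequences within 1 mismatch of Gm42418, which reaches past the end of 18S, had 4607 nuclear and 7581 cytoplasmic reads. Within the covered bases the ratio of the 175 sequences differed with the place. Those that start in bases 51 to 100 had 3453 nuclear and 2921 cytoplasmic reads, a ratio of 1.21 (1.15 to 1.27). In the next window, bases 101 to 150, 16 sequences had 802 nuclear and 113 cytoplasmic reads, 7.24-fold above the cytoplasmic level. Bases 251 to 300 gave 454 and 32 reads, 14.5-fold higher, and bases 351 to 400 gave 40 and 85 reads. Windows 401 to 450 and 501 to 550 held 39 and 40 sequences with ratios of 1.28 and 1.5. In no window between bases 151 and 250 did an abundant unmatched sequence start.

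Within the main peak the start again mattered. The leading form of group 14, from base 79, had 442 nuclear and 761 cytoplasmic reads. A form that starts at base 81 is shown with the shared stretch in capitals.
Group 14, shifted form (chr17:39846433-39846452, bases 81 to 100): TGAAACTGCGAATGGCTcat
It had 721 nuclear and 106 cytoplasmic reads, 6.94-fold above the cytoplasmic level (5.66 to 8.60). The group as a whole had a ratio of 1.17, whose log2 value of 0.23 turned to -0.04 under TMM factors.

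**Figure D3:**
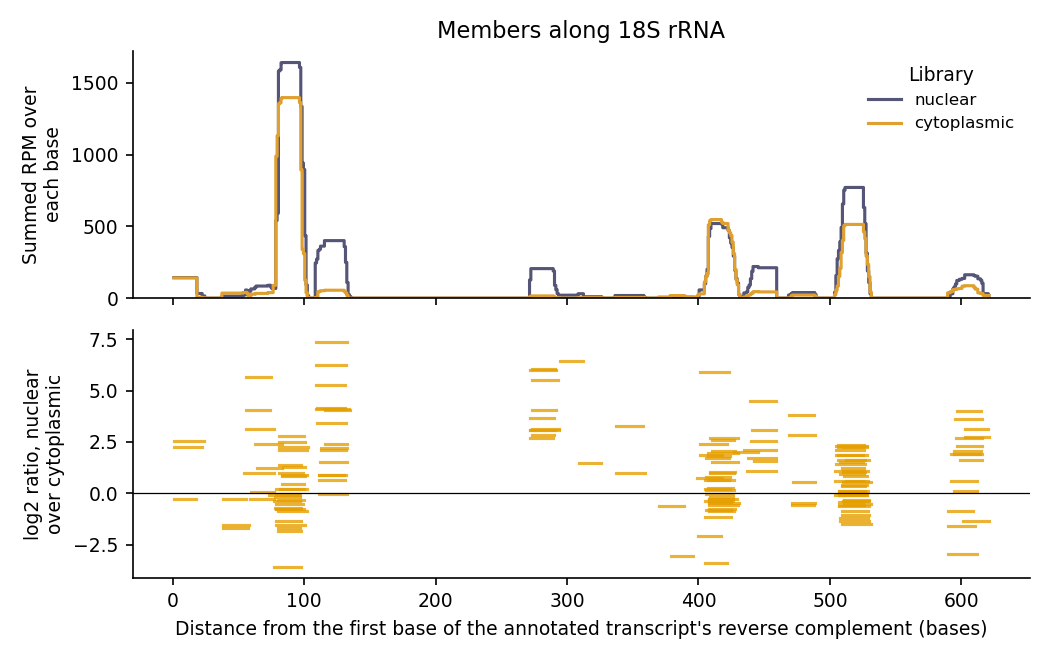
The 175 unmatched sequences along the reverse complement of the annotated rRNA transcript (x axis, bases from its first base). The upper panel sums RPM over each base in each library and the lower panel draws each sequence at its log2 ratio; the peak near bases 79 to 97 is of similar height in both libraries, and the sequences of bases 251 to 300 are mostly nuclear.

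Some of the most nuclear groups began just before the annotated first base of a snoRNA. Capitals mark the bases that lie before it.
Snora73a (chr4:132352961-132352979, minus strand): Tccgacgtggatatcccggg
Snora73b (chr4:132352508-132352526, minus strand): Tccaacgtggatatcccggg
Gm26448 (chr9:120129351-120129369, plus strand): Tccaacgtggacaacccagg
Snord104 (chr11:106500993-106501012, plus strand): CGgcgatgatgacactccatac
Snord37 (chr10:81178950-81178968, plus strand): Ccaccatgatgacggaaatt
Coordinates (GRCm38) are those of the lower-case part, which is the first stretch of the annotated snoRNA. Snora73a and Snora73b are near-identical H/ACA-type snoRNAs, and the annotated gene Gm26448 begins much like them. Snord104 and Snord37 are of the C/D type.

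Snora73a led this set, in group 7, which had 11495 nuclear and 117 cytoplasmic reads. All 29 of its sequences were called higher in the nuclear library, beside 43.9% of all 7684 single sequences. Its own 13 extended sequences had 9981 nuclear and 98 cytoplasmic reads, 104-fold above the cytoplasmic level (85.2 to 128). Sequences that match the annotated gene exactly held only 162 nuclear and 34 cytoplasmic reads. The added T is in the genome: 18-nt forms of Snora73a and Snora73b are the exact reverse complement of the overlapping gene Gm17300, at chr4:132352963-132352980 and chr4:132352510-132352527, which reach 1 base beyond the annotated snoRNA ends at 132352979 and 132352526. Snora73b had 1262 nuclear and 19 cytoplasmic reads in extended form, and Gm26448 had 270 and 4. Because these copies are so alike, reads may be split between them.

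Snord104 was found nearly always with bases before its annotated start, with 5491 nuclear and 132 cytoplasmic reads against 113 and 4 for exact matches, none of which began at the annotated first base. Snord37 differed, since both forms were abundant: 3405 nuclear and 2 cytoplasmic reads carried the extra C, and 2766 and 4 matched exactly. Its group as a whole had 3470 nuclear and 2 cytoplasmic reads, a ratio of 1771 with an interval of 490 to 14629. Over all 69 sequences that match after removal of 5′ bases, 21816 nuclear and 1305 cytoplasmic reads were counted. Mir5126 went the other way among them, with 142 nuclear and 872 cytoplasmic reads.

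Another set lay 1 mismatch from Snord14c, a C/D-type snoRNA. Capitals mark the base that differs.
Group 116: tTgctgtgatgatggatt
Group 135: tcgctgtgatgatggCtt
Group 295: tcgctgGgatgatggatt
The substitutions, from the 5′ end, are C2T, A16C and T7G. Group 116 had 516 nuclear and 26 cytoplasmic reads. Groups 135 and 295 had 418 and 86 nuclear reads and none in the cytoplasmic library, at least 142-fold and 29.3-fold higher than a floor of 3 cytoplasmic reads. The exact Snord14c sequence of the same length had 30670 nuclear and 431 cytoplasmic reads, 72.6-fold above the cytoplasmic level. Where the mismatches arose was not tested. All 36 sequences within 1 mismatch of a snoRNA held 1934 nuclear and 38 cytoplasmic reads, and all 8 of their groups were called higher in the nuclear library. Of all 666 groups of this level and length, matched or not, 39.9% were called higher.

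The transcripts matched here hold few tRNAs, so fragments of tRNAs appear among the unmatched sequences. Names below come from general knowledge of tRNA sequences unless a locus is given. Capitals mark bases held by at least 75% of the group's reads.
Group 6, start of tRNA-Glu: tccctggtggtctagtggttag
Group 43, start of tRNA-Lys: GCCCGGATAGCTCAGTCGGtag
Group 69, start of tRNA-Gly: gcattggtggttcagtggta
Group 39, start of tRNA-Leu: GTCAGGATGGCCGAGCGGT
Group 29, within tRNA-Lys: agtcggtagagcatcagac
Group 44, within tRNA-Pro: aggggtatgattctcggt
Group 249, within tRNA-Gly: TAGAATTCTCGCCTGCCAC
Group 308, within tRNA-Arg: TCGGATCAGAAGATTGAG
Group 148, name not given: TGGATAAGGCATTGGCTTc
Group 178, end of tRNA-Pro: tcaaatcccggacgagcccc
The leading sequences of the 4 groups from tRNA starts had more nuclear reads. Those from within a tRNA or from its end had more cytoplasmic reads. However, groups 44, 148, 178, 249 and 308 were named because their ratios were among the smallest. Groups 39, 43 and 69 were added after their values were seen. The list was thus partly chosen by ratio and cannot show whether the ratio goes with the place in a tRNA.

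Group 6 held both kinds. Its leading form, the first 22 bases of tRNA-Glu, had 2760 nuclear and 56 cytoplasmic reads, 50.3-fold above the cytoplasmic level (38.6 to 66.8). This 22-nt sequence is also the reverse complement of an exon of Yipf1, at chr4:107320101-107320122 on the minus strand, where the RefSeq table lists no tRNA. A form further into the tRNA is shown with the shared stretch in capitals.
Group 6, downstream form: AGTGGTTAGgattcggcg
It had 23 nuclear and 1005 cytoplasmic reads, 42.8-fold above the nuclear level. The sum of the group, 9216 nuclear and 3993 cytoplasmic reads, gave a ratio of 2.36 that describes neither form, and under TMM factors its log2 ratio of 0.97 was no longer called.

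The other groups of tRNA starts lay nearer to equal levels. Group 43 had 1300 nuclear and 1124 cytoplasmic reads, group 69 had 743 and 490, and group 39 had 1284 and 1467. The leading sequence of group 39 had 873 and 192, and single forms in that group reached a log2 ratio of -4.58. Group 29 was 11.9-fold above the nuclear level, with 270 nuclear and 3270 cytoplasmic reads. Its leading sequence begins with the last bases of that of group 43, within the same tRNA.

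Group 44 had 61 nuclear and 2320 cytoplasmic reads, 37.3-fold above the nuclear level. Its leading sequence begins at base 14 of the RefSeq locus n-TPtgg2 (chr11:67291139-67291210) with 2 mismatches. The second most abundant form differs from it at G17C.
Group 44, next form: aggggtatgattctcgCt
It had 21 nuclear and 547 cytoplasmic reads, beside 18 and 873 for the leading form. Groups 148 and 178 had 7 and 9 nuclear reads and 319 and 215 cytoplasmic reads, 44.6-fold (21.4 to 112) and 23.4-fold (12.1 to 51.9) in favour of the cytoplasmic library. Group 249 had 3 and 118 reads, 38.5-fold (12.9 to 190), and group 308 had 2 and 74, 36.3-fold (9.69 to 305). Group 308 matched the locus n-TRtcg5 (chr7:79466419-79466491) from its base 34 with 2 mismatches. Within 2 mismatches of the 10 tRNA loci whose sequence could be had from an annotated exon there were 19 sequences, and 0 when read backwards. The locus n-TPtgg2 held 13 of them, with 47 nuclear and 1699 cytoplasmic reads, and so most of the reads. The loci n-TGccc7 and n-TRtcg5 also leaned to the cytoplasmic library, with 13 and 111 reads and with 2 and 74. The locus n-TSgct5 went the other way, through a single sequence from its first base with 47 nuclear and 23 cytoplasmic reads, 2.09-fold above the cytoplasmic level (1.24 to 3.6).

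The 3′ ends of tRNAs left traces beyond the CCA rule. Sequences ending in CCA were left out, but those with further bases after CCA stayed. Capitals mark the added base.
End of tRNA-Val with 1 added base: aaccgggcggaaacaccaA
End of tRNA-Tyr with 1 added base: ttccggctcgaaggaccaA
The form of tRNA-Val that ends in CCA had 280 nuclear and 3627 cytoplasmic reads, and with an added A it had 137 and 260, 1.86-fold above the nuclear level (1.51 to 2.30). For tRNA-Tyr the CCA form had 35 and 431 reads, and the form with an added A had 73 and 159. In both cases the extended form leaned less to the cytoplasmic library than the CCA form. The T-loop letters GTTCGA, common to many tRNAs, were in 61 sequences (1.44%), with a ratio of 1.21.

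In all, 667 sequences lay 1 mismatch from a miRNA transcript other than Mir6240, and 639 of them had their exact form in the table, for 41 miRNA genes. Capitals mark the base that differs. These were chosen for high read numbers or for ratios unlike that of the exact form.
let-7a or let-7g: tgaggtagtaggttgtaCagtt
let-7f: tgaggGagtagattgtatagtt
let-7f: tgaggtagtagattTtatagtt
let-7i: tgaggtagtagGttgtgctgtt
miR-103: agcagcattgGacagggctatga
miR-140: taccacagggGagaaccacgga
miR-21a: tagcttatcagactgatgGtga
miR-29a: tagcaccatctgaaatcgTtta
miR-29a: tagcaTcatctgaaatcggtta
miR-29a: tagcaTTatctgaaatcggtta
The let-7 family is a set of near-identical miRNAs linked to differentiation, and miR-21a is abundant in activated myeloid cells.

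Variants were a small share of their miRNA. Among 603 variants with a single abundant miRNA 1 mismatch away, the median was 0.151% of that miRNA in the nuclear and 0.136% in the cytoplasmic library, counting miRNAs with at least 1000 reads, and the highest were 2.72% and 2.82%. The mismatch lay in the seed (bases 2 to 8, which pair with targets) in 154 of them. The class of all 667 sequences 1 mismatch from a miRNA, not these 603 alone, had 123 groups of at least 50 reads. Of these groups 10 were called higher and 59 lower, beside 39.9% and 23.9% of all 666 groups of this level and length. The median of their log2 ratios was -0.92, below the 0.02 of all unmatched groups. Scaling to the miRNA total moves every log2 ratio up by 0.88, so this lean to the cytoplasmic library depends on the scaling.

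For the other 36 a second abundant miRNA was also 1 mismatch away, so the parent is not certain. The most abundant variant is one of them: with 168 nuclear and 775 cytoplasmic reads, it is T18C of let-7a or T12G of let-7g. As let-7g it would be 0.658% of that miRNA in the nuclear and 2.13% in the cytoplasmic library. Among the 603, T to G was the most frequent substitution, with 139 variants, 26.4% of nuclear and 35.4% of cytoplasmic variant reads, followed by T to C with 108. G to T made up 16.9% of nuclear and 8.15% of cytoplasmic variant reads.

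Single T to G and G to T variants had unlike ratios of reads. These ratios also hold the lean of the exact miRNA, and the variants were picked for high reads or unlike ratios. T12G of let-7i had 38 nuclear and 296 cytoplasmic reads, 0.312% and 1.34% of the miRNA. T11G of miR-103 had 33 and 344 reads, 10.2-fold above the nuclear level (7.14 to 15.1), and T11G of miR-140 had 10 and 233. T19G of miR-21a had 38 and 308, and all exact matches to that miRNA had 51865 and 209284. In the other direction, G19T of miR-29a had 166 nuclear and 46 cytoplasmic reads, 3.68-fold above the cytoplasmic level (2.64 to 5.22), and G15T of let-7f had 210 and 76, 2.82-fold higher (2.16 to 3.72). T6G of let-7f had 332 and 371, with an interval of the ratio that held 1 (0.785 to 1.06). Shares of the exact reads of 13 abundant miRNA sequences take out the lean of the miRNA. T to G at position 6 was then at 0.309% in the nuclear and 0.166% in the cytoplasmic library. At position 11 it was at 0.145% and 0.638%, and G to T at position 15 was at 0.223% and 0.0606%.

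**Figure D4:**
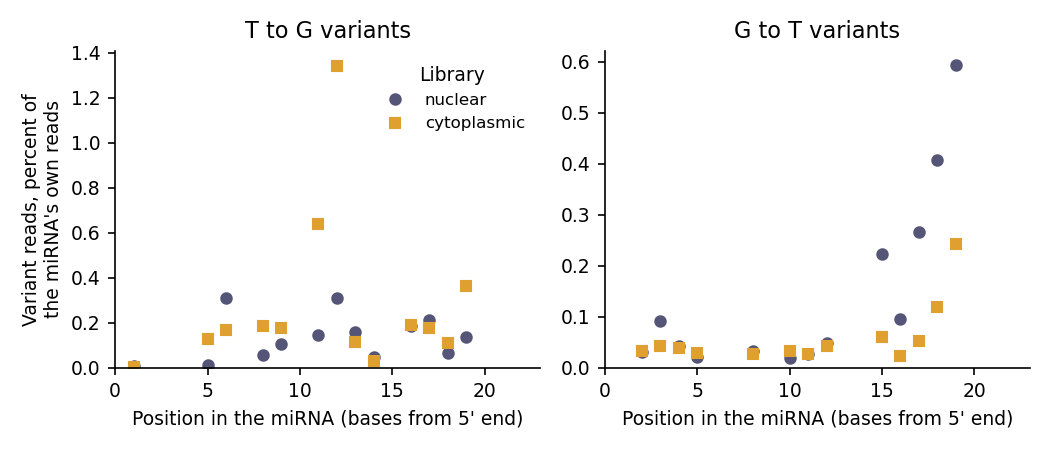
Reads of T to G and G to T variants as a percentage of the reads of the exact miRNA (y axes start at 0 and differ in scale), by position from the 5′ end, over 13 miRNA sequences with at least 10000 reads in each library, without variants that have a second parent. Cytoplasmic T to G variants are highest at positions 11 and 12, which rest on 2 and 1 sites, and nuclear G to T variants are above cytoplasmic ones from position 15 on.

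The plot covers every such variant of 13 abundant miRNA sequences, at any level. Over all positions T to G was at 0.127% in the nuclear and 0.133% in the cytoplasmic library. C to T was the commonest per site, at 0.330% and 0.228%. G to T was at 0.0904% and 0.0458%, and A to C at 0.0571% and 0.0186%, 3.07 times as frequent in the nuclear library. These rates are a description over few sites of related miRNAs, and how the mismatches arose was not tested.

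A further 118 sequences counted as having no near match were 2 mismatches from an abundant miRNA. The most abundant, miR-29a with both C6T and C7T in its seed, had 272 nuclear and 327 cytoplasmic reads, 1.07% and 0.748% of miR-29a. It exceeded each of the single changes, C6T with 170 and 148 reads and C7T with 99 and 131.

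The extremes of the ratio were reached by groups with reads in 1 library only. Of the 380 groups, 11 had all their reads in the nuclear and 2 in the cytoplasmic library. Groups with a transcript match were not counted in this way, so this is not read as a trait of the unmatched groups. Group 61, a 25-nt sequence and its shifted forms with no near match, had 1525 nuclear reads and 0 cytoplasmic reads, at least 519-fold higher than the floor of 3 reads. Group 109, in which 72.8% of reads had no near match, had 643 nuclear reads and 1 cytoplasmic read, a ratio of 656 (117 to 25962). Groups 213 and 309 had 159 and 75 nuclear reads and 0 cytoplasmic reads. No genome was matched, so whether sequences without a near match come from the mouse cells at all was not tested. Group 246 is 1 base from Mir1a-1 at A17G, with 122 nuclear and 0 cytoplasmic reads, more than the 54 and 5 reads of the exact sequence of its length. On the cytoplasmic side, groups 339 and 375 had 64 and 51 reads and none in the nuclear library, at least 20.9-fold and 16.7-fold higher. Group 268, 1 base from Mir378a, had 2 nuclear and 100 cytoplasmic reads, 49-fold in favour of the cytoplasmic library (13.2 to 410), and group 79, 1 base from the mitochondrial rRNA mt-Rnr1, had 226 and 746. Group 208 is the reverse complement of Gm12895, with 137 nuclear and 30 cytoplasmic reads.

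Unmatched sequences had no length peak. At 22 nt lay 15.4% of their nuclear and 18.8% of their cytoplasmic reads, against 40.3% and 44.8% of matched reads of the same level. At 24 and 25 nt lay 8.72% and 6.20% of nuclear but 4.81% and 3.02% of cytoplasmic unmatched reads. Guanine and cytosine made up 60.6% of bases in the nuclear and 59.1% in the cytoplasmic library, against 43.1% and 41.5% in matched reads. T was the first base of 22% of nuclear unmatched reads, where C led with 31.5%, against 71.9% in matched reads, many of which are miRNAs. G was the last base in 46.0% of nuclear and 24.3% of cytoplasmic unmatched reads.

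**Figure D5:**
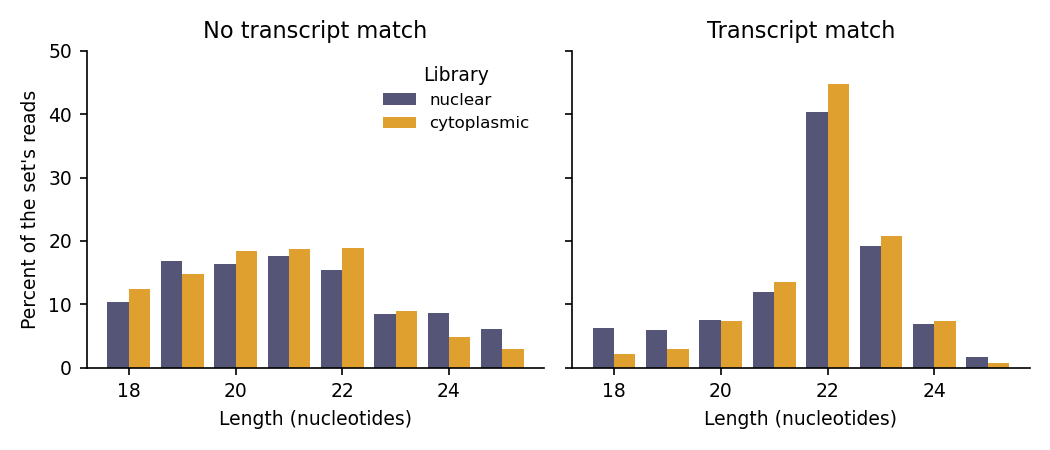
Share of reads (percent of the set's reads in each library) by length in nucleotides for sequences without (left) and with (right) a transcript match, with bars for both libraries. Matched reads peak at 22 nt in both libraries, with 40.3% and 44.8%, and unmatched reads do not.

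In their ends the groups were less sharp than miRNAs. Over 254 groups with at least 50 reads and 3 sequences, the commonest 5′ end held a median of 72.3% of reads and the commonest 3′ end 48.6%. Groups matched to miRNAs had medians of 100% and 49.6%, and groups matched to other transcripts 67.5% and 48.3%. The 5′ end was the sharper one in 180 of the 254. Longer RNAs also held the same letters: 3240 of the 4230 sequences (76.6%) lay inside a sequence of 26 to 39 nt of the same table. Some members were near-copies of others: 206 were 1 mismatch from one with at least 10 times their reads, at a median of 1.17% of it.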

How the data were processed

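The authors' deposited table lists sequences with a value in RPM for each library. CASAVA and the build mm10 are named per the submitters' processing notes, and neither trimming, alignment nor filters are given in the sources used here. Columns were matched to the libraries on the last letter of their names. All values above 0 (100%) were whole multiples of 1 read within a tolerance of 0.1 read, 0.500 RPM nuclear and 0.490 RPM cytoplasmic, and reads were recovered on that basis. A level of 10 RPM takes at least 21 reads.

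Sequences were matched to 141767 GENCODE vM21 transcripts (GRCm38). Searches for near matches allowed 1 mismatch, removal of up to 7 bases at the 5′ end or of 4 or more at the 3′ end, and the reverse complement, in a fixed order. Here too any removal had to leave at least 18 bases. RefSeq (GRCm38.p6) gave 408 tRNA loci, 10 of them with a sequence from an annotated exon. Ratios compare shares of recovered reads, with 0.5 reads added on the log2 scale. With 1 library in each group, no count test, edgeR's included, could be fitted, and no p-value is given. The ratio and matching steps were checked on simulated data.

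Groups were named by rule: the 12 with most reads, 8 from each extreme of the ratio (intervals excluding 1), and the largest of each annotation class. Groups 24, 39, 41, 43, 48, 69, 81 and 83 and the forms and variants shown beside a leading sequence were added after their values were seen, as were the search at the 5′ end, the tRNA loci, the bases around CCA, the second parents and 2-mismatch forms of miRNAs, and the rates by position. The members and lists were chosen with earlier results of these data known. Python 3.11.15, numpy 2.4.6, scipy 1.17.1 and, for TMM factors, edgeR 4.0.16 in R 4.3.3 were used. A few sequences are not reported here.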

Additional observations from a re-analysis of the deposited data

How the results depend on the processing

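Without a minimum of reads, 240 of 598 groups were higher in the nuclear library, beside 141 of 380 with it, and the median log2 ratio was 0.26. With scaling to the miRNA total 55 of the 380 groups were lower and the median was 0.91, and with TMM factors the median was -0.25. The median of 0.02 also turned to -0.06 under the median of ratios, -0.02 with 18 shared bases and -0.05 with leading sequences only. Leaving out sequences within 1 mismatch of small or ribosomal RNA left 60 of 276 groups lower, beside 109 of 380 with them. A level of at least 20 RPM left 2190 sequences in 369 groups, and with no level limit there were 351329 in 217744 groups, with 37.5% of nuclear and 17.2% of cytoplasmic reads. Matching over the full length alone raised the cytoplasmic share to 22.8%, above the nuclear share of 22.3%, so the direction of that difference turned. The counts of groups higher and lower stayed within 1.5 times under TMM factors, the median of ratios and 5 reads added. They also did with 18 shared bases, leading sequences only, at least 20 RPM or matching over the full length alone. The higher groups stayed in that range under the miRNA total and without the sequences within 1 mismatch. The lower groups did without a minimum of reads. An added search, chosen after seeing the data, let 3′ removal leave 15 bases instead of 18, and gave 4180 sequences. Of the 34 named groups, 31 kept their call under TMM factors, 33 under median of ratios, 28 under the miRNA total and 34 with 5 reads added, and no called group changed direction. Among groups not called, group 1 turned to 0.47 under the miRNA total and group 14 to -0.04 under TMM factors (log2 ratios). Calls were lost for groups 6 (log2 ratio 0.97) and 8 (0.74) under TMM factors, group 8 (0.92) under the median of ratios, and groups 10 (-0.96) and 79 (-0.81) under the miRNA total. Calls were gained by groups 2 (1.77), 4 (1.34), 9 (1.69) and 14 (1.12) under the miRNA total and by group 12 (-1.19) under TMM factors. The cause was not tested. No paired analysis was possible because each group has 1 library. Depth limits groups under 50 reads, which were not called.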
